A study of Oncorhynchus kisutch with 206 samples.

Results

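The brains of coho salmon (Oncorhynchus kisutch) caught in fall 2009 on the west coast of Vancouver Island were set against those of fish caught in the same fall in the Strait of Georgia. The fish were taken by their labels alone: season ocean fall, year 2009, and place WCVI for the west coast, or NM_SoG or south_SoG for the Strait. This gave 7 west coast fish and 43 Strait fish, 50 in all and 24.3% of the arrays of a study that followed juvenile coho from fresh water into the sea. Each array held brain RNA of 1 fish in one Alexa dye beside a pool of all brain samples in another, with no dye swap.

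The west coast fish were 6 wild fish and 1 hatchery fish, 5 females and 2 males, of 5 labelled stock regions (ECVI 2, Oregon 2, and 1 each of Puget_Sound, Columbia and North). They were caught at 4 positions, and fish 3530, 3534, 3537 and 3538 came from the same one (latitude 49.08). Fish 3511 came from latitude 48.338, fish 3628 from 49.835 and fish 3712 from 50.745, and the first of these lay far to the east of the rest (longitude -123.769, against -126.033 to -127.286). Fish 3511 was thus at the longitude of Strait fish 3232, 3233 and 3237, to their south, and was kept as a west coast fish by its label. The Strait fish were 22 wild and 21 hatchery fish, 22 females and 21 males, 21 of NM_SoG and 22 of south_SoG, with stock labels ECVI (17), Fraser (13), S_Main (12) and Chilliwack_R (1). West coast fish were the larger. Their fork length was 29.4 ± 2.66 cm (SD, n = 7, range 24.6 to 32.5), and that of Strait fish 24.3 ± 2.36 cm (SD, n = 43, range 17.1 to 28.4). Of the 7 west coast fish 5 were longer than every Strait fish, and 21 of the 43 Strait fish were at least as long as the shortest west coast fish.

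Coho leave their rivers as smolts and spend the first months at sea close to land, some inside the Strait of Georgia, a sheltered inland sea, and others along the open shelf of the outer coast. Growth in this first season is thought to bear on survival through the winter. The fish brain, with the pituitary it controls, takes part in feeding, growth, osmoregulation and maturation, and its transcripts are known to change with life stage and season.

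Probes are named by their position on the array (column and row), and their genes and sequences were not at hand. Results are therefore given per probe, with no pathway or cell type. The values are taken as log2 of the fish divided by the pool. No label gives the log base or the direction. Both are likely from the values but not settled. For a pool made from these fish, log2 of the mean back-transformed ratio should lie near 0. Over 10 classes of probes by variance its median was 0.063 to 0.21 read as fish over pool, and -0.068 to 1.16 read as pool over fish. The first reading was nearer 0 in the 7 classes of highest variance (0.065 against 1.16 in the highest), and the second in the 3 of lowest variance. Read as natural logs of fish over pool, the median was 0.20 to 0.38. A natural log is not excluded and would make every fold larger. If the values were pool over fish, every sign below, with each count and ranking of higher and lower probes, would turn round. Over the 50 arrays 38.8% of the values were empty, and 14431 of the 43630 probes had a value on each of these arrays. Pairs of arrays correlated between -0.30 and 0.87 over those probes, with a median of 0.38, and 1 pair in 1225 lay below -0.3.

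Before the comparisons, 3 features of the arrays bear on what follows. The 50 arrays lay on 28 slides, of which 2 held both coasts: 1 slide with 1 fish of each, and 1 slide with 2 of each. Both west coast fish on the latter, 3628 and 3712, were also the northernmost, and in several measures below they stood apart from the other 5, so slide and position cannot be told apart for them. The deposited table also has 18 control rows. Of the 11 with at least 3 values on each coast, 10 were lower on west coast arrays, by a median of -0.33 (range -0.47 to 0.03). Their mean per array, each row centred, was -0.27 ± 0.27 (SD, n = 7) on west coast arrays and 0.018 ± 0.37 (SD, n = 43) on Strait arrays (two-sided exact permutation p = 0.0599). Fish 3628 and 3712 had 0.065 and 0.12, and the other 5 lay between -0.57 and -0.24. On some arrays this mean rests on as few as 1 row.

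Brains of the 2 coasts differed in a large set of probes. Of 29076 probes measured in 3 or more fish of each coast, limma with slide as a random block called 2830 at a Benjamini-Hochberg adjusted p under 0.05, which is 9.73%. On the west coast 1831 were lower (6.3%) and 999 higher (3.44%). The median difference was -0.82 among those lower and 0.94 among those higher, against a median absolute difference of 0.32 over all probes tested. At least 1.5-fold separated the coasts in 2622 of the 2830, of which 1678 were lower and 944 higher, and at least 2-fold in 881. Over all 29076 probes tested the lean was the other way. Of these, 6979 reached 1.5-fold, 2827 lower and 4152 higher, and 1552 reached 2-fold. Most of the lower probes crossed the level of the pool: in 1414 of 1831 the west coast mean was below 0 and the Strait mean above it, and in 648 of the 999 higher probes the west coast mean was above 0 and the Strait mean below. These probes were picked for a difference between the same groups, so part of this crossing may follow from that choice. Its share over all probes tested was not counted.

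Of 2530 called probes with a value in all 7 west coast fish, 1601 had each of these fish on the called side of the Strait mean. The calls rest on the same fish, so part of this agreement follows from the choice of probes. Its share over all probes tested was not counted. Among 2526 called probes with 7 west coast and at least 30 Strait values, the ranges of the coasts did not overlap in 5, and in 5 of 19721 among all tested with that many values. Calls depended on how completely a probe was measured: 15.5% of the probes with 50 values were called, 5.99% of those with 41 to 49, 2.92% of those with 26 to 40 and 1.21% of those with 6 to 25. Called probes were spread over the array, with 8.57% to 11.1% called in 10 blocks of columns and 8.12% to 11.9% in 10 blocks of rows.

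C171R079 and C202R020 had the largest lower differences among called probes with 7 west coast and at least 30 Strait values. The log2 ratios of C171R079 in the 7 west coast fish, in the order 3511, 3530, 3534, 3537, 3538, 3628 and 3712, were -1.64, -0.0069, -0.95, -1.24, -2.25, -1.06 and 1.02. Strait fish ran from -0.16 to 3.81 with a median of 1.13. Of the 7 west coast fish 5 lay below every Strait fish, and fish 3712 lay within the middle of the Strait range. The difference was -2.03 (SE 0.34), 4.08-fold lower, with an adjusted p of 0.000136 by limma. Within the slide with 1 fish of each coast the difference was -6.07, and within the slide with 2 of each it was -0.50. The first rests on fish 3538, the lowest of the west coast, and fish 3188, the highest of the Strait at 3.81. C202R020 differed as much, with west coast values of -0.76, -1.60, -1.77, -1.99, -2.70, -2.77 and -0.83 in the same order of fish. The 39 Strait fish with a value ran from -2.22 to 3.34 with a median of 0.39. All west coast fish were below the Strait mean, while 9 Strait fish lay below the highest of them. The difference was -2.08 (SE 0.49, adjusted p = 0.00448 by limma), and -3.01 and -2.23 within the 2 slides. For C171R079 and C202R020 alike, the Strait mean of fall 2009 (1.09 and 0.28) was the highest of all collections of the study. The next were 0.39 in Chilliwack parr of 2008 for C171R079 and -0.39 in Chehalis smolts of 2009 for C202R020.

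The 2 largest higher differences under the same minimum, those of C070R079 and C007R036, had another pattern. C070R079 was at 1.13, 0.11, -0.55, 3.24 and 1.23 in fish 3511, 3530, 3534, 3537 and 3538, but at -4.77 and -5.56 in fish 3628 and 3712. Strait fish ran from -5.93 to 0.29 with a median of -4.35. Thus 3 west coast fish lay above every Strait fish, and the 2 that shared a slide lay at the low end of the Strait. The difference was 2.94 (SE 0.87, 7.68-fold, adjusted p = 0.0248 by limma). It was 5.02 within the slide with 1 fish of each coast and -0.82 within the slide with 2 of each. C007R036 followed the same course, with 1.83, -0.17, 0.93, 1.53 and 1.22 in the first 5 fish and -4.71 and -5.42 in fish 3628 and 3712. Strait fish ran from -6.33 to 1.60 with a median of -4.51. Its difference was 2.92 (SE 0.95, adjusted p = 0.0407 by limma), with 5.74 and -0.37 within the 2 slides. In both probes Strait fish also spread widely, with most near the low end and a smaller number near or above 0.

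**Figure D1:**
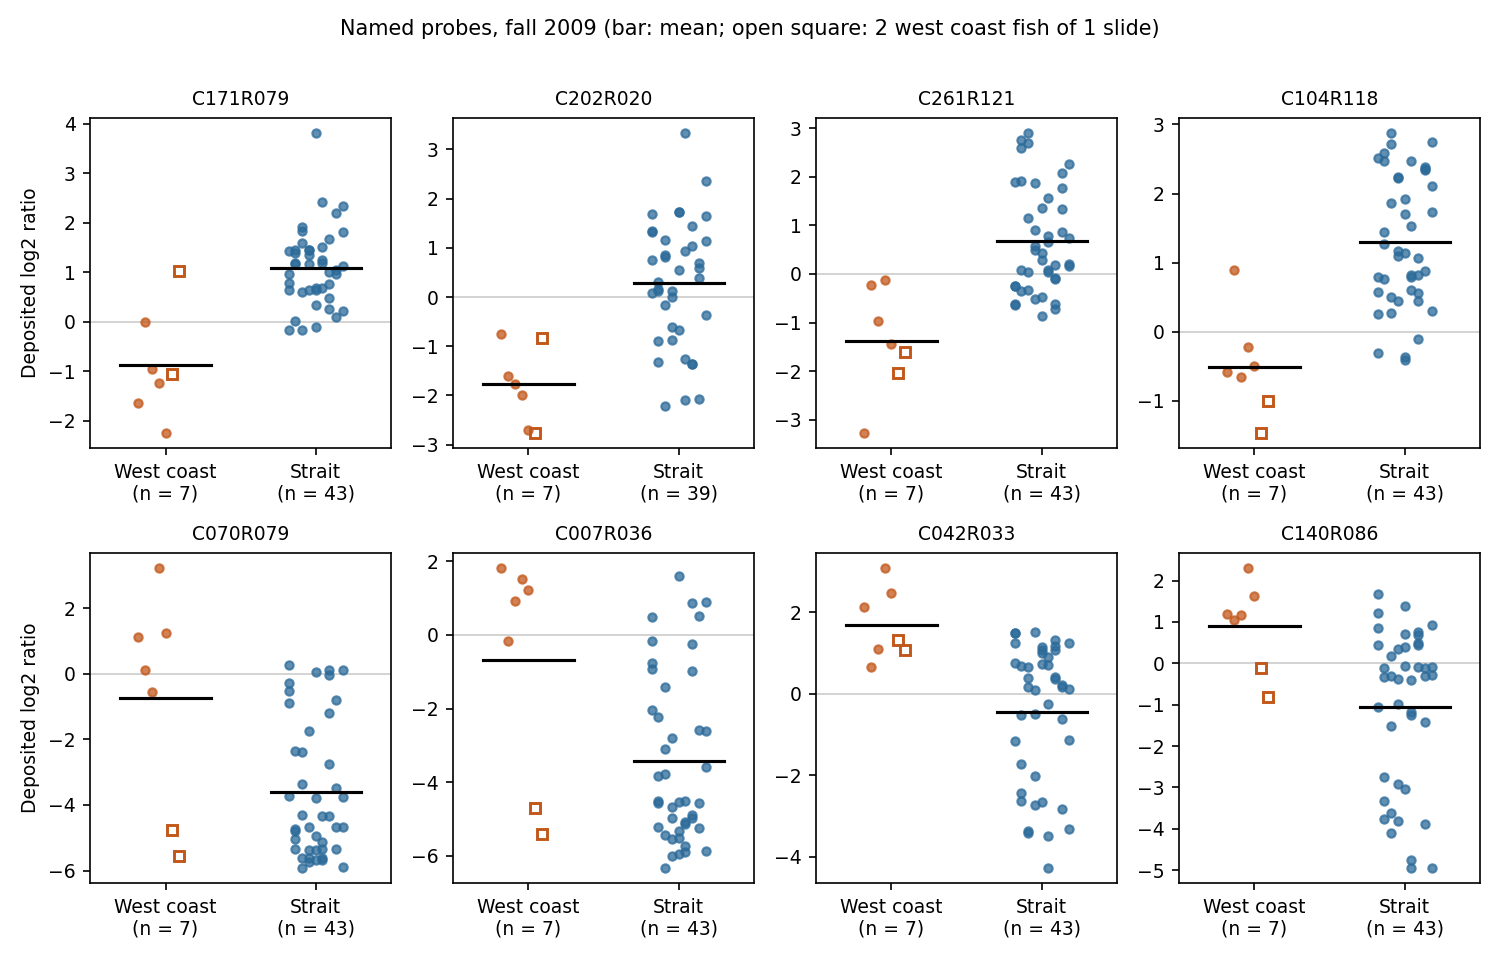
Deposited log2 ratios (fish over pool, vertical axis) of 8 named probes in single fish of fall 2009, west coast on the left and Strait on the right of each panel, with bars at the means. Open squares are fish 3628 and 3712, which shared a slide: in C070R079 and C007R036 they lie near -5 with most Strait fish, and in C261R121 and C104R118 all 7 west coast fish lie below the Strait mean.

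Over all called probes, the 2 slides that held both coasts went the same way as the whole comparison, as they must in part, since their fish belong to it. On the slide with 2 fish of each coast, 1684 of 1806 probes called lower were lower (median -0.55) and 789 of 913 called higher were higher (median 0.48), beside 48.4% higher over all probes tested. On the slide with 1 fish of each the medians were -1.07 and 1.08. With slide as a fixed term, which takes the coast difference from these 3 west coast and 3 Strait fish, limma called 14 of 25656 probes (2389 at an unadjusted p under 0.05), 12 of them lower.

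Since the west coast fish were larger, the comparison was repeated with fork length as a term. Limma then called 2303 of the 29076 probes (7.92%), with 1664 lower (5.72%) and 639 higher (2.2%). Of the 2830 probes called without length 1630 were called again, 1261 of the 1831 lower and 369 of the 999 higher. No called difference changed sign, 1844 of the 2830 grew and 986 shrank, and the median ratio of the difference with length to that without was 1.09. The SE grew more, by a median ratio of 1.25. Over all 29076 probes tested 88.4% kept their sign, and the median absolute difference went from 0.32 without length to 0.40 with it. Growth was thus not particular to the called probes. They were picked for large differences, so part of their keeping of sign follows from that choice.

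No probe passed a test for length among Strait fish. In the 43 Strait fish limma called 0 of 32873 probes (0%) for a slope on fork length, with 2565 at an unadjusted p under 0.05, and also 0 without a slide term, after quantile normalization and with place as a term. The probes called between coasts had a median absolute slope of 0.027 per cm in Strait fish, against 0.031 over all probes tested. Called probes were more completely measured than the rest, and these medians were not matched for that. For 934 of the 2830 the slope had the sign of the coast difference. The share of such probes among all tested was not counted, and the same Strait fish entered both fits. A slope fitted mostly on Strait fish has to be carried past 28.4 cm to reach 5 of the west coast fish, so a curved relation is tested weakly. With a square of length added 817 probes were called, 62 of them higher. Limited to fish of 24 to 30 cm, with 4 west coast and 28 Strait fish and no length term, limma called 917 probes, 812 lower and the others (11.5%) higher, and 776 of these were among the 2830. The 4 west coast fish were 24.6, 28.2, 28.5 and 29.4 cm long, and no Strait fish was above 28.4 cm. The range therefore does not match the coasts for length.

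With length in the model, C261R121 showed the largest lower difference among called probes with 7 west coast and at least 30 Strait values, while the lowest among all called probes was -3.51. West coast values were -3.28, -0.24, -0.98, -0.12, -1.45, -2.03 and -1.60 in the order of fish above, and Strait values ran from -0.88 to 2.91 with a median of 0.44. Of the 7 west coast fish 5 lay below every Strait fish. The difference was -1.96 (SE 0.40, adjusted p = 0.00119 by limma) without length and -2.98 (SE 0.46, adjusted p = 0.000198) with it, and -1.88 and -1.78 within the 2 slides. The 21 Strait fish at least as long as the shortest west coast fish averaged 1.12, above the mean of 0.67 ± 1.08 (SD, n = 43) over all Strait fish. That mean was the highest of all collections of the study, and the next was -0.30 in Strait fish of summer 2009. West coast fish of fall 2009 averaged -1.38, within the range of the other collections (-2.06 to -0.30). The slope in Strait fish was 0.19 per cm, of a sign opposite to the coast difference, and did not pass its own test (adjusted p = 0.503 by limma).

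C104R118 was alike, at -0.58, 0.89, -0.66, -0.21, -0.49, -1.47 and -1.0 on the west coast, against -0.41 to 2.88 with a median of 1.14 in the Strait. All west coast fish were below the Strait mean and 5 were below every Strait fish. Its difference was -1.72 (SE 0.35) without length and -2.39 (SE 0.42, adjusted p = 0.000569 by limma) with it. Here too the Strait mean of fall 2009 (1.29) was the highest of all collections, with 0.26 next in Strait fish of summer 2009. Among higher probes under this minimum C042R033 led, at 2.14, 0.67, 1.11, 3.10, 2.48, 1.33 and 1.09 on the west coast, against -4.27 to 1.53 with a median of 0.18 in the Strait. Here fish 3628 and 3712 did not part from the rest, and 3 west coast fish lay above every Strait fish. The difference was 2.00 (SE 0.62, adjusted p = 0.0326) without length and 2.91 (SE 0.76, adjusted p = 0.0134 by limma) with it. Strait fish averaged -0.44 for C042R033 in fall 2009, against 0.98 in fall 2008 and 1.20 in summer 2009. Those of summer 2008 and winter 2009 were lower, at -0.87 and -1.64. C140R086 was called with length only (2.65, SE 0.87, adjusted p = 0.0470 by limma), and missed the threshold without it (1.81, SE 0.70, adjusted p = 0.0851).

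Single measures of whole arrays were compared by exact permutation over all 99884400 ways of choosing 7 of the 50 fish, adjusted over 7 measures. These permutations treated the fish as exchangeable and ignored slide, though 14 of the 28 slides held more than 1 of the 50 fish. The sign of each principal component was set so that the west coast mean was the higher. The size of a value is the root mean square log2 deviation per probe along that component. The first component held 33.1% of the variance. It was 0.40 ± 0.35 (SD, n = 7) on the west coast and -0.065 ± 0.38 (SD, n = 43) in the Strait (two-sided exact permutation p = 0.00455, adjusted 0.0159). Of the 7 west coast fish 6 lay above the Strait mean. The exception was fish 3712 at -0.19, followed by fish 3628 at 0.063, while the other 5 lay between 0.42 and 0.74. Within the slide that held both of them the coasts differed by 0.041, and by 0.69 within the other slide. Component 1 also moved with the control rows: over the 43 Strait arrays its Pearson correlation with their mean was -0.70 (permutation p = 1e-05, adjusted 5e-05 over 5 correlations, the smallest p that 100000 permutations can give) and Spearman's rho was -0.68 (permutation p = 1e-05, adjusted 5e-05). West coast arrays had lower control rows and a higher component 1, the same sign as this correlation. Without the 2 arrays farthest from the median of that mean r was -0.74, and it was -0.76 in NM_SoG and -0.65 in south_SoG fish.

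The fourth component, with 4.33% of the variance, separated the coasts more evenly. It was 0.17 ± 0.13 (SD, n = 7) on the west coast and -0.028 ± 0.13 (SD, n = 43) in the Strait, with all 7 west coast fish above the Strait mean (two-sided exact permutation p = 0.000485, adjusted 0.00339). Within the 2 slides it differed by 0.30 and 0.21. In Strait fish it too moved with the control rows, upward (r = 0.59, permutation p = 8e-05, adjusted 0.0002, and rho = 0.48, permutation p = 0.00132, adjusted 0.0033). West coast arrays had lower control rows and higher values of component 4, a sign opposite to this correlation. The part of the control rows in components 1 and 4 was not tested. Components 2 and 3, the SD and median of an array and its share of empty values (37.1% ± 7.13 on the west coast, n = 7, and 39.1% ± 7.46 in the Strait, n = 43) did not pass the test (adjusted exact permutation p of 0.601 to 0.914). None of the 4 components correlated with fork length in Strait fish after adjustment (adjusted permutation p of 0.108 to 0.289 for Pearson's r, n = 43).

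With the mean of the control rows as a term, a setting chosen after seeing the data, limma called 1157 probes in place of 2830, 907 lower and 250 higher, and 1111 of them were among the 2830. With length and the control rows together 408 were called, 364 lower and 44 higher. The part of these rows in the coast difference was not tested beyond this fit. The share of calls kept was 886 of 1831 (48.4%) of the lower and 225 of 999 (22.5%) of the higher probes with the control rows, and 695 (38.0%) of the lower and 81 (8.11%) of the higher probes in fish of 24 to 30 cm. In length, control rows and the 24 to 30 cm range together 507 lower and 46 higher probes were called in each. These settings refit the fish behind the 2830 calls, or some of them, so part of the calls kept follows from that. Over all probes tested, 1157 of 29076 were called with the control rows and 917 of 25250 in fish of 24 to 30 cm.

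Which fish were in the group mattered as well. Without fish 3628 and 3712, also a setting chosen after seeing the data, limma called 5917 probes, 3153 higher and 2764 lower, so that higher calls outnumbered lower ones. Leaving out 1 west coast fish at a time gave between 1266 (without 3538) and 4366 (without 3712) called probes, with 1481 without 3537 and 1610 without 3511. With length the range was 597 (without 3511, the shortest) to 3256 (without 3712), with 1266 without 3538. In wild fish alone, 6 west coast and 22 Strait fish, 4092 were called without length, 2049 higher and 2043 lower, and 897 with it. Against NM_SoG fish alone 1580 were called and against south_SoG fish alone 1667.

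**Figure D2:**
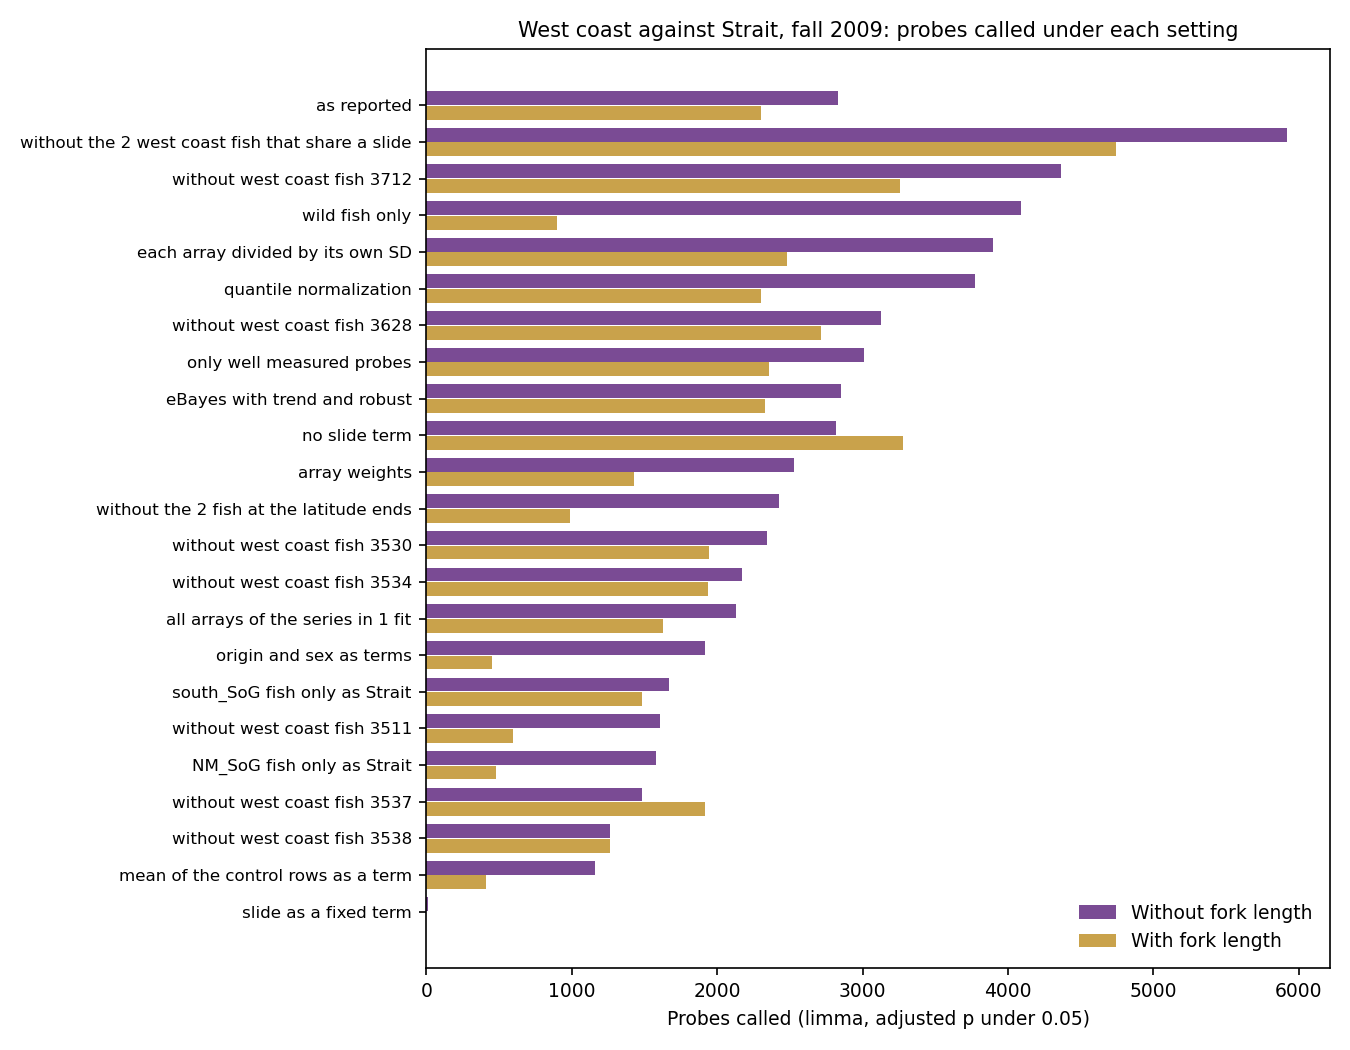
Number of probes called by limma at an adjusted p under 0.05 (horizontal axis) between west coast and Strait fish of fall 2009, without and with fork length as a term, for the comparison as reported (top) and each setting run in both forms, in order of its count without length. The counts without length run from 5917 without the 2 west coast fish that share a slide down to 14 with slide as a fixed term.

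Other fish allow a look at the same contrast. In fall 2008, 17 west coast and 11 Strait fish (all NM_SoG) were sampled, of 25.5 ± 4.97 cm (SD, n = 17) and 25.1 ± 1.58 cm (SD, n = 11), so the coasts were close in mean length. The west coast fish spread more widely, from 16 to 32.8 cm, against 21.5 to 27.2 cm in the Strait. Limma called 626 of 30971 probes (2.02%), 368 lower (1.19%) and 258 higher (0.833%). Of the 2830 probes called in fall 2009, 2818 were also tested in 2008, and 1942 of these (68.9%) differed in the same direction, beside 47.6% of all 28478 probes tested in both falls. The directions parted: 1443 of 1820 lower probes were lower in 2008 too, but 499 of 998 higher probes were higher. Called in both falls were 168 probes, of which 33 were higher in both, 3 went in opposite directions and the others were lower in both. The 168 make up 5.94% of the 2009 list and 26.8% of the 2008 list. Of those lower in both falls 86.4% were called with fork length, 77.3% with the control rows and 56.1% in fish of 24 to 30 cm. Of the 33 higher ones 22, 12 and 3 were called in these settings. Over all probes tested the settings called 2303 of 29076, 1157 of 29076 and 917 of 25250. The probes were picked for calls in the same fall 2009 fish, so part of these shares follows from that choice.

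**Figure D3:**
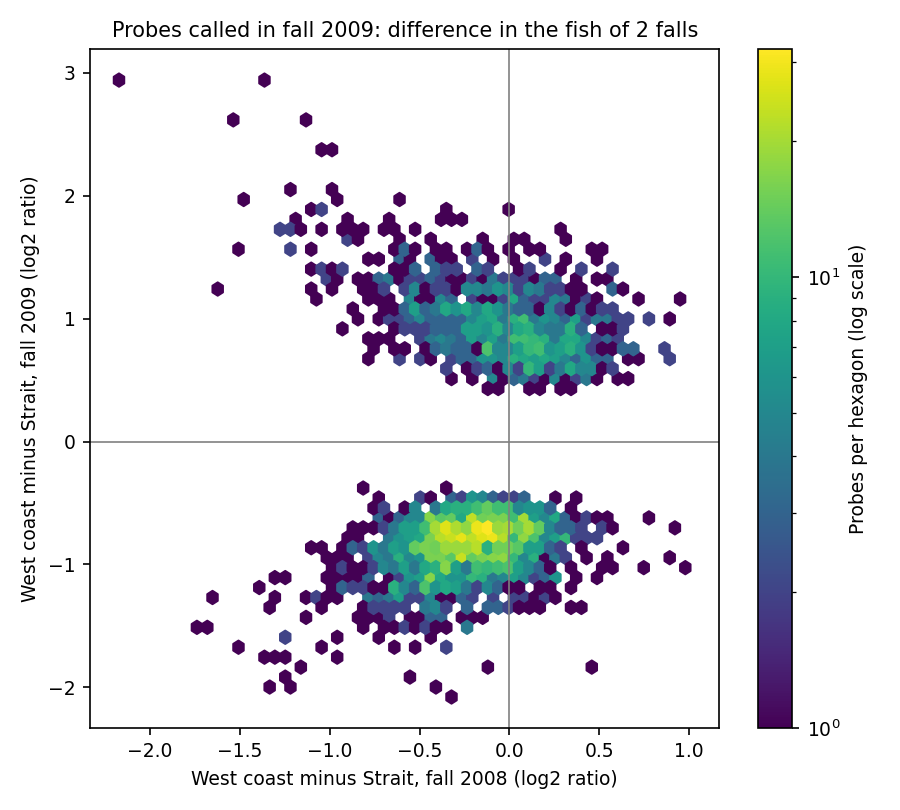
Fitted log2 difference, west coast minus Strait, in fall 2009 (vertical axis) and in fall 2008 (horizontal axis) for the 2818 probes called in fall 2009 and tested in both falls. Colour gives the number of probes per hexagon on a log scale. Probes lower in 2009 lie mostly left of 0, and probes higher in 2009 lie on both sides, with those above 2 in 2009 left of 0.

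Ranked by the smaller of the differences in both falls, C145R094 came first among the probes called lower in each, just ahead of C140R027. In fall 2009 the west coast fish had -0.93, -0.24, -1.61, -0.28, -0.65, -2.18 and -2.56, and the Strait fish -0.97 to 1.33 with a median of 0.40. All 7 west coast fish lay below the Strait mean, 3 of them below every Strait fish, and 6 Strait fish lay below the highest west coast fish. The difference was -1.54 (SE 0.25, 2.90-fold lower, adjusted p = 7.63e-05 by limma), and -1.94 and -2.33 within the 2 slides. It was one of the 14 probes called with slide as a fixed term (-2.20, adjusted p = 0.0248 by limma) and kept its call in each of 23 settings run. In fall 2008 it was -1.33 ± 1.16 (SD, n = 17) on the west coast and 0.29 ± 0.53 (SD, n = 11) in the Strait, a difference of -1.65 (adjusted p = 0.00901 by limma). C140R027 differed by -1.67 in fall 2009 (SE 0.28, adjusted p = 0.000136 by limma) and by -1.53 in fall 2008 (adjusted p = 0.000243). In 2009, 6 of the west coast fish lay between -1.38 and -0.72, below every Strait fish (-0.27 to 2.22), and fish 3537 stood alone at 1.28.

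Of the higher probes that held in both falls, C185R012 was at -0.087, -0.45, -1.09, 1.55, -0.59, 0.52 and -0.62 on the west coast, against -4.0 to 0.34 with a median of -1.34 in the Strait. All 7 were above the Strait mean and 15 Strait fish were above the lowest of them. It differed by 1.17 (SE 0.31, adjusted p = 0.0118 by limma) in 2009 and by 0.95 in 2008. The 2009 call was lost without fish 3537 (0.89, adjusted p = 0.0849 by limma). C032R095 differed by 1.00 (SE 0.24, adjusted p = 0.00559 by limma) and by 0.79. By contrast C070R079 and C007R036 were lower on the west coast in 2008 (-1.38 and -2.17), without passing the test (adjusted p = 0.479 and 0.276 by limma). C171R079, C261R121 and C104R118 were also called lower in fall 2008 (-1.24, -1.31 and -1.29).

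To place single fish of 2009 on a scale whose coast differences came from other fish, each was scored with probes called in fall 2008. The score was the mean of the probes higher on the west coast in 2008 minus the mean of 286 lower ones. Only probes measured in each of the 50 fish were kept, so the fish of 2009 had that part in the choice. Some Strait fish of fall 2009 shared slides with fish of fall 2008. West coast fish scored 0.43, 0.32, 0.37, 0.28, 0.43, 0.88 and 0.81 in the order 3511 to 3712. Strait fish ran from -1.81 to 0.38 with a median of -0.52. All west coast fish lay above the Strait mean, 4 lay above every Strait fish, and 1 Strait fish lay above the lowest west coast fish. Fish 3628 and 3712 had the highest scores here. Fish 3511, from the eastern position and the shortest, scored as high as fish 3538. The mean was 0.50 ± 0.24 (SD, n = 7) on the west coast and -0.50 ± 0.40 (SD, n = 43) in the Strait.

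Among Strait fish the correlation of the score with fork length was negative (r = -0.36, permutation p = 0.0189, adjusted 0.0945 over 5 correlations, and rho = -0.35, permutation p = 0.0205, adjusted 0.1025, n = 43) and did not pass adjustment, while west coast fish, which were longer, scored higher. Leaving out the 2 fish of most extreme length gave r = -0.26, and it was -0.35 in NM_SoG and -0.36 in south_SoG fish. In Strait fish the score also correlated with the control rows, at r = -0.34 (permutation p = 0.0261, adjusted 0.0435) and rho = -0.33 (permutation p = 0.0296, adjusted 0.0493), at -0.41 in NM_SoG and -0.32 in south_SoG fish. The sign is that in which the coasts parted, since west coast arrays had lower control rows and higher scores, but within the west coast fish 3628 and 3712 had both the highest scores and the highest control rows. The part of the control rows in the score was not tested.

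**Figure D4:**
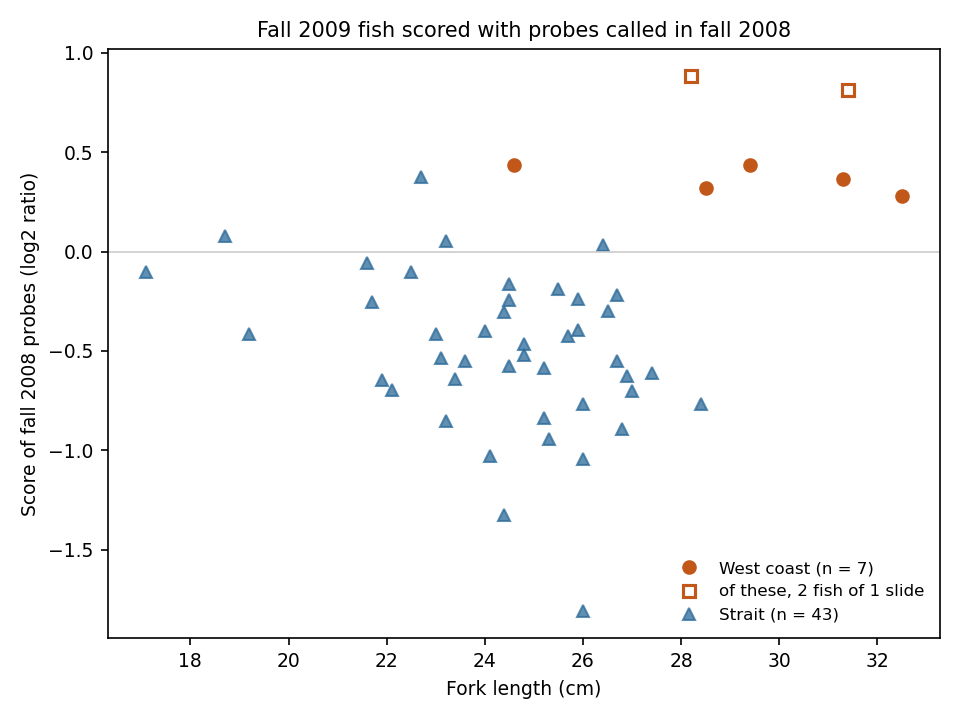
Score of the probes called in fall 2008 (vertical axis, log2 ratio: mean of the higher minus mean of 286 lower probes) against fork length in cm (horizontal axis) for the fish of fall 2009. The 7 west coast fish, with fish 3628 and 3712 as open squares, lie between 0.28 and 0.88, and 1 of the 43 Strait fish reaches that range.

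In summer 2009 the coasts differed in far fewer probes. Limma called 8 of 33111 (0.0242%) between 8 west coast and 35 Strait fish, with 5125 at an unadjusted p under 0.05. The west coast fish were then the shorter, at 15.9 ± 1.68 cm (SD, n = 8) against 18.2 ± 2.20 cm (SD, n = 35). Of the probes called in fall, 2435 of 2824 (86.2%) had the same direction in the summer fish, beside 69.3% of all 28813 probes tested in both seasons. Of the 2830, 1 was called in summer too. C171R079 differed by -1.79 in summer (adjusted p = 0.0716 by limma), C261R121 by -0.92 (adjusted p = 0.182) and C104R118 by -0.89 (adjusted p = 0.167), none past the threshold.

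Whether the coast difference itself changed was tested with an interaction term. Between fall and summer of 2009 limma called 17 of 28813 probes (0.059%), 12 with a more positive and 5 with a more negative difference in fall, and 14 of the 17 were among the 2830. Between fall 2009 and fall 2008 it called 17 of 28478 (0.0597%), 7 more positive and 10 more negative in 2009, of which 13 were among the 2830. Unadjusted p values under 0.05 numbered 2681 and 5852. Both interaction tests used the fall 2009 fish behind the 2830 calls, so part of each overlap follows from that. Over all probes tested in fall 2009, 9.73% were called. No probe named above passed either test. For the other probes a difference between 2830 calls in fall and 8 in summer is not shown by this test to be a change of the coast difference.

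A score built from the fall 2009 calls (593 higher and 1144 lower probes with a value on every array) was taken to fish of the other collections. Summer west coast fish averaged 0.70 ± 0.18 (SD, n = 8), and summer Strait fish 0.12 ± 0.51 (SD, n = 35). All 8 lay above the Strait mean, and 10 Strait fish lay above the lowest of them. In fall 2008 west coast fish averaged 0.78 ± 0.78 (SD, n = 17) and ran from -0.72 to 1.78, against 0.44 ± 0.34 (SD, n = 11) in the Strait, with 11 of 17 above the Strait mean. Fish 298, 1012, 1014, 1015, 1016, 1019 and 1020, longer than every Strait fish of that fall, scored 1.11 to 1.78. The other west coast fish scored -0.72 to 1.28, and the Strait fish at most 0.94. Highest among those others was fish 363, at 16 cm the shortest west coast fish of that fall. All the long fish named here were wild and were caught at neighbouring positions. The shorter fish 299 (hatchery) and 300 (wild) came from the same position as fish 298, and scored 0.31 and 0.033 against its 1.39. The part of fork length, origin or position in this score was not tested. Winter 2009 fish averaged 1.06 ± 0.55 (SD, n = 6) on the west coast and 0.24 ± 1.05 (SD, n = 3) in the Strait. The Strait fish of fall 2009 had the lowest mean of these collections, at -0.58 ± 0.67 (SD, n = 43), a value that the choice of probes helped to set.

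**Figure D5:**
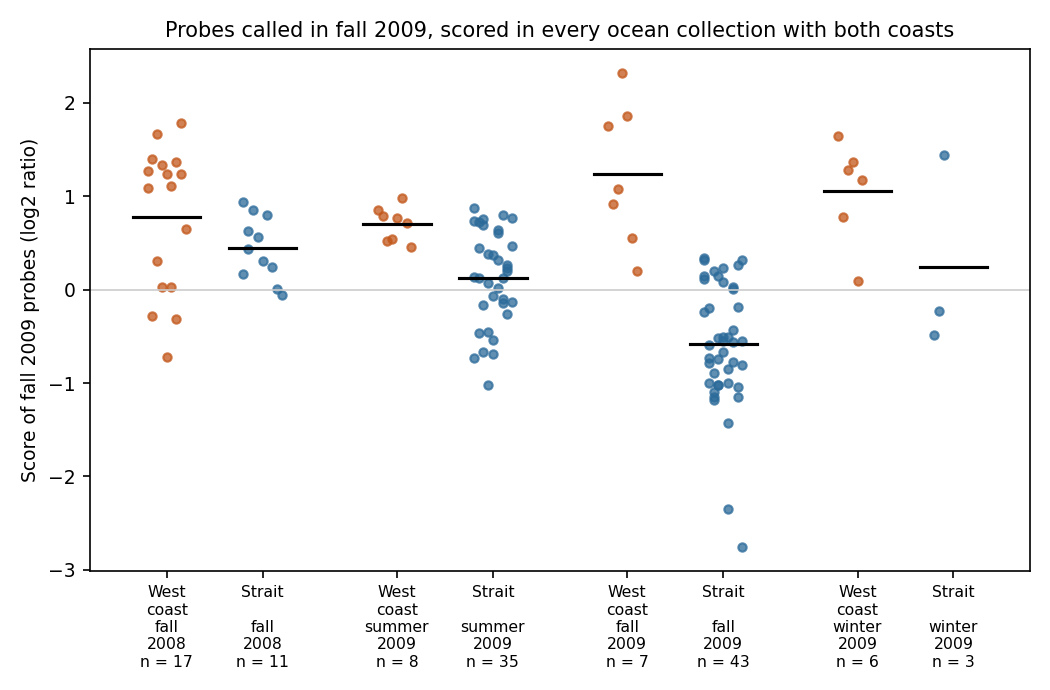
Score of the probes called in fall 2009 (vertical axis, log2 ratio: mean of 593 higher minus mean of 1144 lower probes) for single fish of each ocean collection that held both coasts, west coast left of Strait, with bars at the means. The 2 groups of fall 2009 chose the probes and are shown for reference. Summer west coast fish lie between 0.45 and 0.98, and fall 2008 west coast fish spread from -0.72 to 1.78.

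No probe passed the test for having a value at all more often on one coast. Fisher's exact test over 27668 probes with a value on some but not all arrays called 0 (0%), with 914 at an unadjusted p under 0.05, of which 742 had values more often on the west coast and 172 less often. The smallest adjusted p was 0.274, for C202R074, which had a value in 5 of 7 west coast fish and in 0 of 43 Strait fish. C262R131 had values in 6 of 7 and 6 of 43. Less often measured on the west coast were C035R130 (1 of 7 and 35 of 43) and C243R068 (4 of 7 and 43 of 43). C202R074 was measured in 12 of 35 summer Strait fish.

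Each fish was taken as a separate animal, and the precision of every comparison is limited by the 7 west coast fish. Coast went together with fork length, origin, stock region and, for most fish, slide. ECVI was the only stock region found on both coasts. On the score of the fall 2008 probes its 2 west coast fish, 3511 and 3712, were at 0.43 and 0.81, against -1.33 to 0.38 with a median of -0.42 in its 17 Strait fish. The part of stock region in the calls per probe was not tested. A difference in the RNA of a cell type and a difference in the number of such cells also cannot be told apart in whole brain.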

How the data were processed

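Brain RNA of single coho salmon was hybridised on 2-colour arrays against a pool of all brain samples, with 1 dye orientation throughout, per the labels' protocols. The authors deposited 1 value per probe and fish, used here as log2 ratios and left as given. For feature extraction, background treatment, normalization and the reason for empty cells, nothing is given in the sources used here. The second deposited table, which adds 18 control rows, holds identical values for the probes (100% of cells).

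Groups came from the labels' season, year and place. Each comparison was fitted with limma 3.58.1 (R 4.3.3) on probes with at least 3 values a side, with slide as a random block (duplicateCorrelation), and adjusted by Benjamini-Hochberg over all probes tested. "Called" means an adjusted p under 0.05. Components, array measures and correlations used two-sided exact or random permutation of fish (100000 draws for correlations), and presence of values used Fisher's exact test. None of these tests took slide into account. Principal components were taken over the 14431 probes with a value on each of the 50 arrays. Exact tests ran with Python 3.11.15, numpy 2.4.6 and scipy 1.17.1.

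Named probes were the 2 largest differences each way among called probes with 7 west coast and at least 30 Strait values, without and with fork length, those shared with fall 2008 by the smaller of both differences, and the 2 smallest p each way for presence. The rule for the Strait length slope named none, since 0 were called. The comparison, groups and lists were chosen with earlier results of these data known. Lists of brain, pituitary and stress genes could not be tested, since no table used here names the probes.

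On simulated data for the fall 2009 comparison with 29076 probes, the fit recovered 59 of 100 probes changed by 1 on the log2 scale and 97 of 100 changed by 2, with 11 false calls. With fork length it recovered 38 and 84, with 6 false calls. The simulated noise was normal and drawn for each probe apart from the others, with a slide correlation near 0.2. The real probes vary together, with 33.1% of the variance on component 1. The simulated counts of false calls therefore need not hold for the real arrays. The alternatives covered slide, normalization, weights, filter, origin and sex, Strait place, length, and single west coast fish left out. Those with the control rows, and without fish 3628 and 3712, were chosen after seeing the data.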

Additional observations from a re-analysis of the deposited data

Results flagged for a closer look

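Of 39 sets of values tested in groups of 4 to 10 fish, 6 held a fish farther from the rest than Dixon's 95% limit, where chance alone flags about 1 in 20 groups. C140R027, lower on the west coast in both falls, was at 1.28 in fish 3537, against -1.38 to -0.72 in the other west coast fish of fall 2009. In the summer west coast fish the same probe was at -3.02 in fish 2314, against -0.28 to 0.76 in the others. C202R074 was at -1.36 in fish 3530, with the others between -0.11 and 0.083. C243R068 was at -0.72 in fish 3534, with the others between 0.36 and 0.55. Component 4 was 0.43 in fish 3511, the fish caught far to the east, against 0.038 to 0.21 in the rest. C035R130 was at -0.88 in summer fish 2311, against 0.25 to 0.69 in the others.

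The coast difference itself passed a test of change in 17 probes between fall and summer of 2009 and in 17 probes between fall 2009 and fall 2008, both by limma's interaction term.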

How the results depend on the processing

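No paired analysis was possible because fish numbers are unique to each fish and shared by no 2 groups. Of the 2830 calls in fall 2009, the count was 14 with slide as a fixed term, 1580 with NM_SoG and 1667 with south_SoG as the Strait, 917 in fish of 24 to 30 cm, 1157 with the control rows as a term, 5917 without the 2 west coast fish that share a slide, and 1266 to 4366 when leaving out 1 west coast fish. Of the 2303 calls with fork length, it was 0 with slide as a fixed term (891 at an unadjusted p under 0.05), 1431 with array weights, 450 with origin and sex, 897 in wild fish, 987 without the fish at both ends of the latitude range, 479 with NM_SoG, 1486 with south_SoG, 817 with the square of length, 408 with the control rows, 4743 without the 2 fish that share a slide, and 597 to 3256 when leaving out 1 fish. In 13 other settings without and 13 with fork length the count stayed within 1.5 times of the reported one. The cause of these changes was not tested, beyond the smaller number of fish in several. Higher calls made up 35.3% without and 27.7% with fork length. That share was 14.3% of the 14 with slide as a fixed term, 50.1% in wild fish, 17.3% without fish 3537, 24.2% without 3538, 46.6% without 3712, 53.3% without the 2 fish of 1 slide, 21.6% with the control rows and 11.5% at 24 to 30 cm. With fork length it was 6.89% with origin and sex, 11.7% of 1693 with a length slope for each coast, 18.5% in wild fish, 7.10% with NM_SoG, 7.59% with the square of length, 10.8% with the control rows and 45.9% without the 2 fish.

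Fall 2008 gave 353 calls without a slide term, and 885 after quantile normalization, of which 58.2% were higher against 41.2% before. Summer gave 14 after quantile normalization and 3 with fork length. The season interaction gave 54 with fork length. The year interaction gave 4 without a slide term, 289 after quantile normalization and 2 with fork length. Component 1 ranged from 0.408 to 0.562 with 1 fish left out, and missed the threshold without 3537 or without 3538 (adjusted exact permutation p = 0.0592 for each). Component 2 ranged from -0.0502 to 0.0399 and was negative without 3628 (-0.0436) or 3712 (-0.0502). Component 3 passed after removal of the length slope (0.205, adjusted exact permutation p = 0.0229). C140R086 turned to -0.85 with slide as a fixed term and lost its call there. C070R079 lost its call in 10 of 23 settings, C007R036 in 14 of 23, C185R012 in 4 of 23, C032R095 in 2 of 23 and C042R033 in 8 of 25. C140R027 lost its call in 1 of 23. C171R079 and C202R020 (1 of 23 each) and C261R121 and C104R118 (1 of 25 each) lost theirs with slide as a fixed term. C140R086 kept its sign but lost its call in 15 of 25, besides the setting with slide as a fixed term.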
